A study of Mus musculus with 24 samples.

Results

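Cadherins and protocadherins were described across 24 libraries of mouse medial prefrontal cortex (mPFC) and anterior cingulate cortex (ACC). The members were the protein-coding genes of the count tables whose symbol starts with Cdh and a digit or with Pcdh, with Cdh5, the cadherin of blood vessel endothelium, left out. This rule gave 91 of 33364 genes listed, or 91 of the 19110 that are protein-coding: 22 cadherins, 12 non-clustered protocadherins and 57 clustered protocadherins. The cadherins comprised 5 classical type I, 12 classical type II and 5 other genes, and the clustered genes comprised 14 of the Pcdha, 22 of the Pcdhb and 21 of the Pcdhg cluster.

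Cadherins are calcium-dependent adhesion proteins whose extracellular repeats bind the same or a closely related cadherin on a neighbouring cell, and the classical ones are tied to actin through the catenins. In the cortex, type II cadherins and non-clustered protocadherins are known for being switched on in layer- and area-specific sets of neurons, where they take part in sorting cells, guiding axons and forming synapses. Clustered protocadherins are known for promoter choice in single neurons, which gives each neuron its own set of isoforms that the dendrites use to tell self from other.

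The study asked which genes respond in these regions, in each sex, when a peripheral nerve injury has led to lasting pain. Female and male C57BL/6 mice (C57BL/6J in the study's methods), 3 months old, received spared nerve injury (SNI), in which the common peroneal and sural branches of the sciatic nerve were cut and the tibial branch was spared, or a sham operation, and tissue was taken 2 weeks later. No transgene or drug was used in the groups described here. Sex, region and treatment gave 8 groups of 3 libraries, and each library was made from pooled tissue of several animals, so the p-values measure the spread between pools.

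Between 23853845 and 32864391 reads were counted on genes per library, and the members took 0.327 to 0.369% of them. A count of 3, used as a floor, corresponded to 0.0905 to 0.126 CPM, the count scaled to the effective library size. The 8 markers of excitatory neurons summed to between 6075 and 7376 CPM in every library. The first female sham ACC library stood apart with 985.9 CPM of choroid plexus and ependymal transcripts, followed by the second male SNI mPFC library with 89.2 CPM, whereas every other library had 19.0 CPM or less. Among the 9 genes of that list, Folr1 was at or under 3 counts in 17 libraries, Tmem212 in 15 and Ccdc153 in 10. Cdh3, P-cadherin, had 26 counts in the first female sham ACC library and at most 6 counts in each of the other 23. Pools are bulk tissue, so fewer cells of a type and less RNA per cell cannot be told apart.

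For 4 members whose level differed between the regions in all 4 comparisons of mPFC with ACC given below, the 250 bases before the transcription start are shown so that the promoter letters stand beside the levels. They are Pcdh8 (chr14:79771313-79771562, minus strand) and Pcdh17 (chr14:84443313-84443562, plus strand), which were higher in the mPFC, and Cdh20 (chr1:104768270-104768519, plus strand) and Pcdh9 (chr14:93890680-93890929, minus strand), which were lower. They had the largest differences, judged by the smallest of the 4, among members with a window that holds no annotated exon and starts close to the GENCODE gene. The sequences are from RefSeq, build GRCm38.p6, written 5′ to 3′ on the gene's strand, with capitals on the motifs searched.
Pcdh8: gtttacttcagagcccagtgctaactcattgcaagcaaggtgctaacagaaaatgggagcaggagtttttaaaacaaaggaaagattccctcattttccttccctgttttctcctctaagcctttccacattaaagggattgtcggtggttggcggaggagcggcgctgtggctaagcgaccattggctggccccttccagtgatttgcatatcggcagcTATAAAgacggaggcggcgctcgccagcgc
Pcdh17: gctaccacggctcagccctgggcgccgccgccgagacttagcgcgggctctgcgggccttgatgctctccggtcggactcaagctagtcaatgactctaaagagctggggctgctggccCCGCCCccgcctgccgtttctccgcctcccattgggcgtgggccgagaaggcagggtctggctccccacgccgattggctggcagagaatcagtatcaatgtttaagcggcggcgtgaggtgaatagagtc
Cdh20: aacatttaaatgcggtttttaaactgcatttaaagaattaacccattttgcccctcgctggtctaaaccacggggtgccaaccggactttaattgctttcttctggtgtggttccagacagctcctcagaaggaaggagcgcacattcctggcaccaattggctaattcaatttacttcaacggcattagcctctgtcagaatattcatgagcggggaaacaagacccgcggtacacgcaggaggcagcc
Pcdh9: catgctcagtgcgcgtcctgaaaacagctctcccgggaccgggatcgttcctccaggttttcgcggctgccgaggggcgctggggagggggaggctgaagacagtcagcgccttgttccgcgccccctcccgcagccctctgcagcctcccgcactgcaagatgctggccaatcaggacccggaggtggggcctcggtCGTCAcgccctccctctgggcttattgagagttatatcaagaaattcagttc
The motifs were searched on both strands, and were the TATA box TATAAA, the core of the cAMP response element TGACG and the GC box GGGCGG. None of the motifs overlapped another in these windows. Pcdh8 held 1 TATAAA close to its start, Pcdh17 held 1 GC box read on the other strand, Pcdh9 held 1 cAMP response element core read on the other strand and Cdh20 held none. Over all 32841 RefSeq promoter windows of this length, 12.4% held TATAAA, 17.8% held TGACG and 32.7% held GGGCGG. Of the 22 members with a window in that set, 2 held TATAAA (Pcdh8 and Pcdh15), 3 held TGACG (Cdh8, Pcdh10 and Pcdh9) and 9 held GGGCGG. The GC content was 51.2% for Pcdh8, 64.8% for Pcdh17, 47.6% for Cdh20 and 63.6% for Pcdh9, beside a median of 52.4% over all windows. Cdh13, Cdh4 and Cdh2 had no entry in that set.

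To compare members with each other, levels were taken per kilobase of exon (CPM per kb), as the median over the 24 libraries. Pcdhgc5, the last of the C-type genes of the gamma cluster, was highest at 58.9 CPM per kb, followed by Pcdh1 at 40.7 and Pcdhgc3 at 39.5. The next were Pcdhac2 at 31.2, Pcdh10 at 23.6, Pcdh9 at 19.7 and Pcdh7 at 18.9 CPM per kb. Among cadherins, Cdh22 at 17.9 and Cdh2, N-cadherin, at 16.1 CPM per kb were the highest, ahead of Cdh11 at 11.5 and Cdh13 at 7.42. Genes of the Pcdha and Pcdhg clusters share 3′ constant exons, so that the median gene had 53.55% of its exon bases in common with a same-strand neighbour in Pcdha and 44.6% in Pcdhg, against 0% in Pcdhb. Reads on those exons cannot be assigned to 1 isoform, so levels of single Pcdha and Pcdhg genes are uncertain.

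Several members were at the detection limit. Cdh16 reached at most 1 count and Cdh17 at most 2 in any library, Cdh26 had 0 to 6 counts and Pcdhb1 0 to 10. In the region comparisons 86 of the 91 members passed the low-count filter and were tested. Variation was taken for members with a median count of 10 or more, which leaves out the scarcest, such as Cdh3. Among them, pools of the same group varied least for Cdh2, with a median coefficient of variation of 2.04%, and most for Cdh1 (40.2%). By subclass that median was 6.48% for the non-clustered protocadherins, 6.84% for Pcdhg, 8.45% for type II cadherins and about 10 to 11% for type I, Pcdha and Pcdhb. The median count ranged from 188 in Pcdhb to 1918 in the non-clustered protocadherins. Counting noise and spread between pools therefore cannot be told apart in this ranking.

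The mPFC was compared with the ACC in 4 sets of libraries that share none: female sham, male sham, female SNI and male SNI. In all 4 sets, Cdh13, Cdh15, Cdh4, Cdh2, Pcdh8, Pcdh17, Pcdh19, Pcdh10 and Pcdh1 were higher in the mPFC and Pcdh7, Cdh12, Cdh20, Pcdhb3 and Pcdh9 were lower. With edgeR's quasi-likelihood test at an adjusted p (FDR) under 0.1, 14 of the 86 members tested were called in all 4 sets, 9 higher and 5 lower. Over all 16319 genes tested in the 4 sets, 3.9% were called higher and 3.25% lower in each. In female sham mice 14 members were called higher and 15 lower, where the shares over all genes tested were 14% and 14.5%. In male sham mice 12 were higher and 9 lower (7.46% and 6.7% of all genes). In female SNI mice 13 were higher and 18 lower (13.7% and 13.9% of all genes). In male SNI mice 14 were higher and 13 lower (10.4% and 10.6% of all genes). By class, 7 of 12 non-clustered protocadherins, 6 of 18 cadherins (3 of the 4 type I genes tested) and 1 of 56 clustered protocadherins were called in all 4 sets. Calls in opposite directions in different sets were rare over all genes, at 129 of 16319, and no member had them. The count in male sham mice was 12 without the second male sham mPFC library and 13 without the third, and in female SNI mice it was 20 without the first female SNI ACC library. In female sham mice it was 25 without the first ACC library, which holds the choroid plexus transcripts. No shares over all genes are given for these fits with a library left out. Of the 14 members, 9 kept the call in every set with each library left out in turn and under each other alternative: Cdh13, Cdh4, Cdh20, Pcdh7, Pcdh8, Pcdh9, Pcdh10, Pcdh17 and Pcdh19. Regions were kept in separate tables, so region and any handling done by region cannot be told apart.

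**Figure D1:**
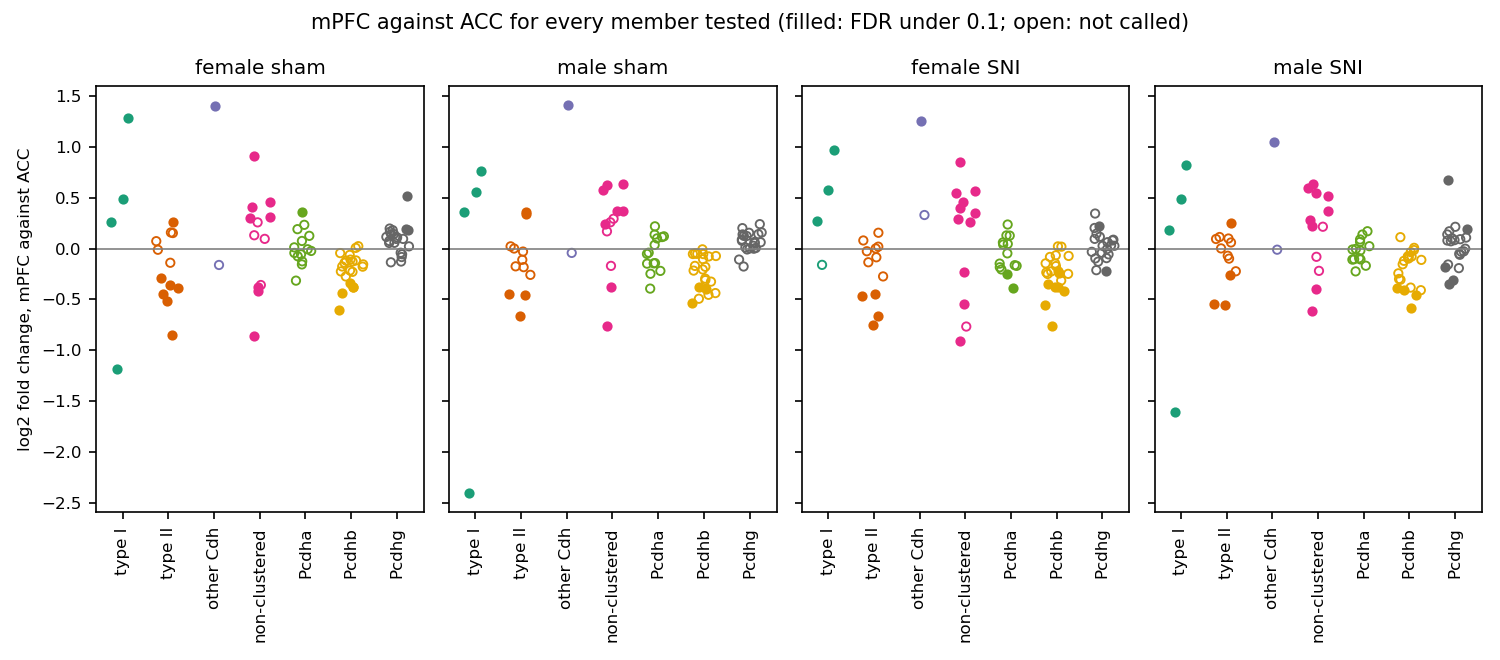
Log2 difference of mPFC against ACC (vertical axis) for every member tested, by subclass, in 1 panel per set, with filled points for an FDR under 0.1 and open points for members not called. The called gene among the other cadherins is Cdh13, at 1.05 to 1.41, and most Pcdhb points lie under 0 in each panel.

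Of the type I classical cadherins, Cdh2, Cdh4 and Cdh15 were higher in the mPFC in all 4 sets, and Cdh1, described below, was called lower in 3. Cdh4, R-cadherin (chr2:179442431-179899373, plus strand), measured 44.7, 42.4 and 42.3 CPM in the female sham mPFC, 41.6, 43.6 and 43.4 in the female SNI mPFC, 33.8, 43.2 and 41.7 in the male sham mPFC and 40.0, 43.1 and 40.7 in the male SNI mPFC. The ACC libraries gave 32.2, 30.4 and 30.5 CPM in female sham, 28.6, 29.8 and 28.0 in female SNI, 24.5, 27.4 and 29.4 in male sham and 31.5, 33.3 and 23.4 in male SNI. All 12 mPFC libraries lay above all 12 ACC libraries, although the margin was only between 33.8 and 33.3 CPM. The log2 difference was 0.49 ± 0.06 (SE, FDR 0.000579) in female sham, 0.56 ± 0.10 (0.00561) in male sham, 0.58 ± 0.06 (2.01e-05) in female SNI and 0.48 ± 0.10 (0.0065) in male SNI mice. Cdh2 (chr18:16588877-16809246, minus strand), the main classical cadherin of the brain, ranged from 133 to 156 CPM in the mPFC and from 112 to 127 in the ACC. Its log2 differences of 0.26, 0.36, 0.27 and 0.18 were called, but the female sham call was lost without the second mPFC library and the male SNI call without the first ACC or second mPFC library. Cdh15 (chr8:122847966-122867397, plus strand), known as M-cadherin from muscle, was scarce, at 1.54 to 2.59 CPM in the mPFC and 0.611 to 1.36 in the ACC. Its log2 differences were 1.29, 0.77, 0.97 and 0.82 (FDR 0.00513, 0.0624, 0.013 and 0.0629), and the calls in male sham and male SNI mice held in only 1 of 6 fits with a library left out, those without the third male sham ACC and the second male SNI ACC library. DESeq2 made neither of these 2 calls.

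Cdh13, T-cadherin (chr8:118283733-119324921, plus strand), is anchored in the membrane by a lipid and has no cytoplasmic tail. It measured 135, 169 and 135 CPM in the female sham mPFC, 106, 139 and 119 in the female SNI mPFC, 128, 150.4 and 143 in the male sham mPFC and 119, 109.6 and 116 in the male SNI mPFC. The ACC libraries gave 59.1, 51.1 and 56.9 CPM in female sham, 46.3, 49.8 and 57.6 in female SNI, 54.5, 52.8 and 52.7 in male sham and 53.1, 60.6 and 52.2 in male SNI mice. The lowest mPFC library, at 106 CPM, was far above the highest ACC library, at 60.6. Its log2 difference was 1.40 ± 0.09 (FDR 2.84e-05) in female sham, 1.41 ± 0.07 (6.65e-06) in male sham, 1.26 ± 0.10 (3.57e-06) in female SNI and 1.05 ± 0.06 (1.22e-06) in male SNI mice.

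Among type II cadherins, which have their own binding specificities and mark neuron subsets, Cdh20 and Cdh12 were lower in the mPFC. Cdh20 (chr1:104768529-104995481, plus strand) measured 11 to 15.2 CPM over the 12 mPFC libraries and 18 to 22.9 over the 12 ACC libraries. Its groups did not overlap, and the log2 differences were −0.52, −0.66, −0.75 and −0.55 (FDR 0.00189, 0.000475, 6.35e-05 and 0.000703). Cdh12 (chr15:20449265-21589533, plus strand) measured 10.5 to 17.8 CPM in the mPFC and 18.6 to 26.7 in the ACC, again without overlap. Its log2 differences were −0.85, −0.46, −0.66 and −0.26 (FDR 0.00121, 0.0204, 9.78e-05 and 0.042). The male sham call of Cdh12 was lost without the second mPFC library, and its male SNI call without the first or second mPFC or the third ACC library. Cdh9 was called higher in 3 sets, in each of which 3 of the 6 fits with a library left out lost the call, and Cdh24 was called lower in 3, whereas Cdh24 differed by 0.07 (FDR 0.803) in female sham mice. Calls in 1 or 2 sets were made for Cdh6, Cdh7, Cdh8 and Cdh19, lower, and Cdh18, higher.

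**Figure D2:**
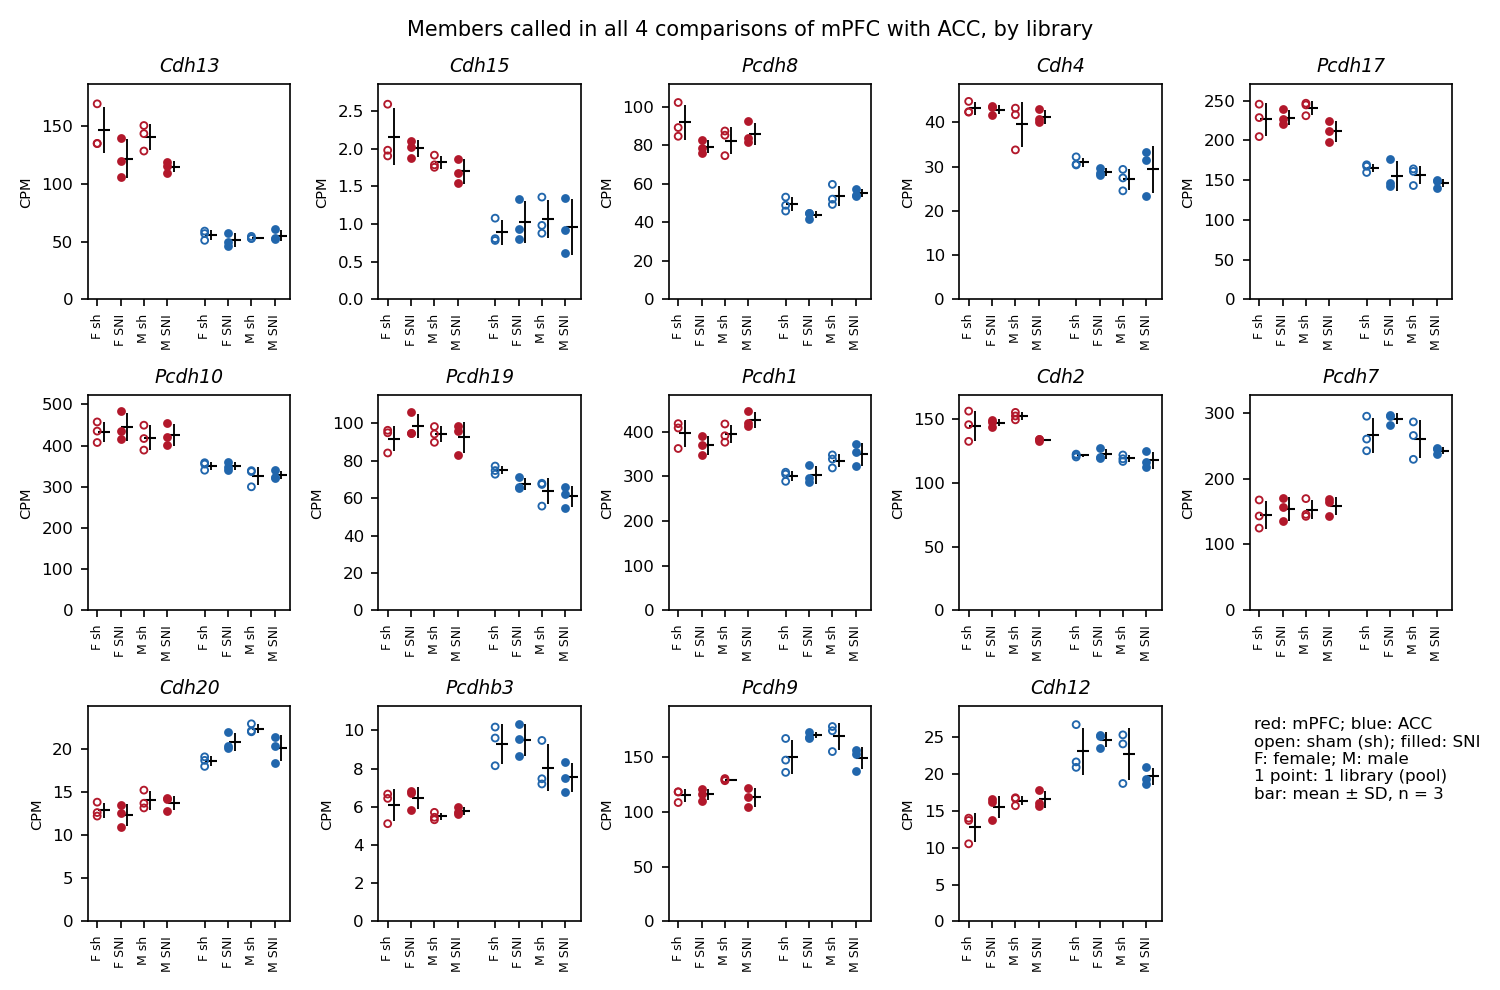
CPM in each of the 24 libraries for the 14 members called in all 4 region comparisons, with mPFC libraries in red, ACC libraries in blue, sham open, SNI filled, and bars for the mean ± SD of each group (n = 3). The 12 mPFC points of Cdh13 lie at 106 to 169 CPM and the 12 ACC points at 46.3 to 60.6.

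Cdh1, E-cadherin of epithelia (chr8:106603351-106670246, plus strand), was lower in the mPFC in 3 sets. It measured 0.571, 0.518 and 1.16 CPM in the female sham mPFC, 2.15, 0.70 and 2.03 in female SNI, 0.331, 0.219 and 0.336 in male sham and 0.422, 0.514 and 0.636 in male SNI mice. In the ACC it measured 2.4, 1.37 and 1.34 CPM in female sham, 1.27, 2.60 and 1.55 in female SNI, 1.24, 1.18 and 2.35 in male sham and 1.30, 2.42 and 1.03 in male SNI mice. The 2 regions overlapped in the female SNI libraries only, with a log2 difference of −0.16 (FDR 0.806) there, against −1.18 (0.0401) in female sham, −2.41 (0.00206) in male sham and −1.61 (0.00888) in male SNI mice. The region by SNI term in females was 1.03 ± 0.59 (FDR 0.510), so sham and SNI females were not shown to differ. The female sham call was not made without the first ACC library, which holds the choroid plexus transcripts, or without the first or second mPFC library. Of 11 markers of meningeal fibroblasts, 8 were lower in the mPFC in each of the 3 sets where Cdh1 was called, and none was lower but 2 were higher in female SNI mice. Their summed level was 86.5 to 155 CPM in the mPFC and 121 to 254 in the ACC, and their part in the result was not tested.

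Of the 12 non-clustered protocadherins, 11 had the same sign in all 4 sets, as did 7706 of all 16319 genes tested in them. The δ2 subfamily, known for recruiting the WAVE actin regulators, comprises Pcdh8, Pcdh10, Pcdh17, Pcdh18 and Pcdh19, and all 5 were higher in the mPFC in each set by sign, 4 of them called in all 4. Of the δ1 subfamily, Pcdh7 and Pcdh9 were called lower in all 4 sets, Pcdh11x was lower by sign in all 4 and called in 2, and Pcdh1 was called higher in all 4. This grouping into subfamilies was made after the values were seen and was not tested.

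Pcdh8 (chr14:79766775-79771312, minus strand), also known as arcadlin for its rise with neuronal activity, measured 89.3, 102 and 84.8 CPM in the female sham mPFC, 78.7, 82.8 and 76.2 in female SNI, 74.7, 85.3 and 87.5 in male sham and 83.8, 92.7 and 81.9 in male SNI mice. In the ACC it measured 48.9, 45.9 and 53.2 CPM in female sham, 45.1, 41.8 and 45.0 in female SNI, 52.1, 49.4 and 59.8 in male sham and 53.8, 54.5 and 57.5 in male SNI mice. Every mPFC library was above every ACC library, with log2 differences of 0.91 ± 0.08 (FDR 9.79e-05), 0.63 ± 0.09 (0.00101), 0.86 ± 0.05 (7.05e-07) and 0.64 ± 0.06 (1.75e-05) in the order female sham, male sham, female SNI, male SNI. Pcdh17 (chr14:84443563-84539002, plus strand) ranged from 198 to 247 CPM in the mPFC and from 141 to 177 in the ACC, without overlap. Its log2 differences in that order were 0.46, 0.63, 0.57 and 0.52 (FDR 0.00158, 0.000172, 0.000165 and 4.01e-05). Pcdh10 (chr3:45378398-45435623, plus strand) ranged from 389 to 483 CPM in the mPFC and from 299.9 to 360.3 in the ACC. Its log2 differences of 0.31, 0.37, 0.35 and 0.37 were smaller but also without overlap. Pcdh19 (chrX:133582860-133688987, minus strand), whose mutation causes an epilepsy in heterozygous females, ranged from 83.3 to 106 CPM in the mPFC and from 54.9 to 77.2 in the ACC, with log2 differences of 0.30, 0.57, 0.55 and 0.60. Pcdh1 (chr18:38185914-38212053, minus strand) was at 348 to 445 CPM in the mPFC and 287 to 373 in the ACC, ranges that overlap, and its male sham call was lost without the first or second ACC or the second or the third mPFC library.

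Pcdh7 (chr5:57717967-58133230, plus strand), of the δ1 subfamily, measured 168, 125 and 143 CPM in the female sham mPFC, 171, 135 and 157 in female SNI, 169.6, 146 and 143 in male sham and 164, 143 and 169 in male SNI mice. In the ACC it measured 259.9, 295 and 242 CPM in female sham, 296, 295 and 282 in female SNI, 265, 286 and 229 in male sham and 245, 237 and 246 in male SNI mice. No mPFC library reached the lowest ACC library, and the log2 differences were −0.86 ± 0.10 (FDR 0.000397), −0.76 ± 0.09 (0.000336), −0.91 ± 0.07 (3.38e-06) and −0.62 ± 0.06 (2.73e-05). An antisense gene covers 21.1% of its exon bases, and whether strand was used in counting is not given in the sources used here. Pcdh9 (chr14:93013410-93890679, minus strand) was at 104 to 130.5 CPM in the mPFC and 136 to 178 in the ACC, with log2 differences of −0.37, −0.38, −0.55 and −0.40 and no overlap. Pcdh20 and Pcdh15, the latter a part of the tip link of hair cells, were called higher in 2 sets each, in the SNI sets, with log2 differences of 0.46 and 0.54 for Pcdh20. Its values in the sham sets were 0.26 in females and 0.26 in males (FDR 0.133 and 0.101), and the region by SNI terms were 0.21 in females (FDR 0.563) and 0.29 in males (FDR 1.0).

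Of the 56 clustered protocadherins tested in all sets, 33 were called in none, 22 in 1 to 3 and 1 in all 4, and over all genes 8542 of 16319 were called in none. The Pcdha sum was 240.2 ± 9.44 CPM (SD, n = 12) in the mPFC and 241 ± 7.93 in the ACC, and the Pcdhg sum was 895 ± 29.7 and 864 ± 34.5 CPM. The Pcdhb sum was 152 ± 7.31 CPM in the mPFC (143 to 169) and 175 ± 9.37 in the ACC (160.5 to 189), with overlapping ranges. By sign, 19, 21, 19 and 19 of the 21 Pcdhb genes tested were lower in the mPFC, with medians of −0.18, −0.21, −0.23 and −0.12 on the log2 scale, while the medians over all genes were between 0.00 and 0.01. Of these, 5, 3, 8 and 4 were called lower and none higher, beside 14.5%, 6.7%, 13.9% and 10.6% of all genes called lower. Pcdhb3 was called in all 4 sets, at 5.12 to 6.85 CPM in the mPFC and 6.78 to 10.3 in the ACC (log2 differences −0.60, −0.54, −0.55 and −0.39), but its male sham call was lost without the second mPFC library. Pcdhb5 was called in 3 sets and did not overlap over the 12 and 12 libraries, at 5.03 to 7.08 CPM against 7.42 to 9.02, and its female SNI call was lost without the first or the third ACC or the second mPFC library. The other Pcdhb genes called, Pcdhb2, Pcdhb9, Pcdhb10, Pcdhb11, Pcdhb16, Pcdhb18, Pcdhb19 and Pcdhb20, were called lower in 1 to 3 sets each.

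**Figure D3:**
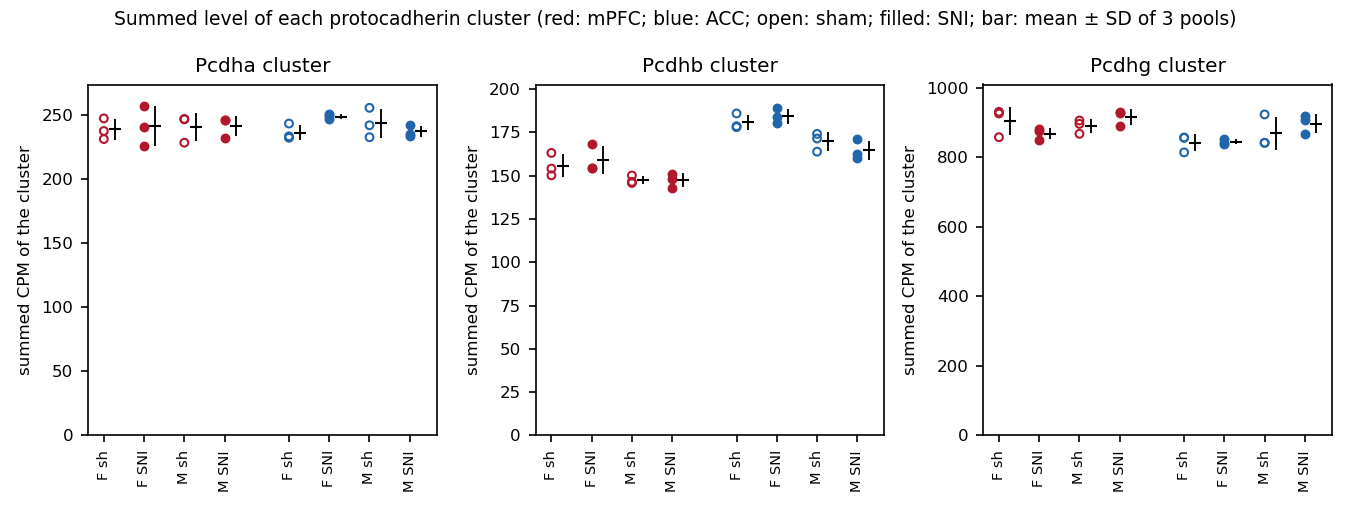
Summed CPM of the Pcdha, Pcdhb and Pcdhg clusters in each library, with 1 point per library, the 8 groups on the horizontal axis (mPFC red, ACC blue, sham open, SNI filled) and bars for the mean ± SD of 3 pools. The Pcdhb sum lies at 143 to 169 CPM in the mPFC and at 160.5 to 189 in the ACC.

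Of the 21 Pcdhg genes tested, 3 were called higher and none lower in female sham mice, none in male sham, 1 higher and 1 lower in female SNI, and 2 higher and 3 lower in male SNI mice. These were Pcdhga5, Pcdhga8, Pcdhga11, Pcdhgb4, Pcdhgc4 and Pcdhgc5, higher, and Pcdhga2, Pcdhgb1, Pcdhgb6 and Pcdhgc3, lower. Over all genes, in the same order of sets, 14%, 7.46%, 13.7% and 10.4% were called higher and 14.5%, 6.7%, 13.9% and 10.6% lower. Pcdhgc4 was called only in male SNI mice, at 0.67 (FDR 0.000423), but the region by SNI term in males was 0.48 ± 0.27 (FDR 1.0), and its pools varied with a median coefficient of variation of 22.9%. In the Pcdha cluster, Pcdha2 was called higher in female sham mice, and Pcdhac1 and the entry ENSMUSG00000007440, one of a pair named Pcdha11, were called lower in female SNI mice.

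Other genes of the adhesion machinery were taken from 3 lists. Ctnnb1, β-catenin, which links cadherins to α-catenin, was higher in the mPFC in all 4 sets, at 0.25, 0.23, 0.21 and 0.19 on the log2 scale. Ctnna1, an α-catenin, was lower, at −0.30, −0.27, −0.24 and −0.35. Of 14 catenins and cadherin-bound proteins tested, 6, 3, 4 and 3 were called higher and 2 lower in each set. Of 15 other cadherin superfamily genes tested, 8, 3, 9 and 3 were called higher and 0, 0, 2 and 1 lower. Cdhr1, of photoreceptors and olfactory bulb neurons, was higher in all 4, at 1.17, 0.98, 1.12 and 1.01, as was Dchs2, of the Fat and Dachsous system, at 1.25, 1.42, 1.21 and 0.72. Of the 20 listed genes that regulate the protocadherin clusters or act downstream of them, 3, 2, 2 and 3 were called higher and 4, 0, 3 and 1 lower, with Ptk2b and Wasf1 higher in all 4. Beside the counts of the 3 lists, 14%, 7.46%, 13.7% and 10.4% of all genes tested were called higher in these sets. The shares called lower were 14.5%, 6.7%, 13.9% and 10.6%.

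Cell-type markers also differed between the regions, and their part in the results above was not tested. In the order female sham, male sham, female SNI, male SNI, 6, 5, 3 and 2 of 8 layer 6 neuron markers were higher in the mPFC (sums 188 to 276 CPM against 156 to 226 in the ACC), and 2 were lower in male SNI mice. Striatal neuron markers were higher in 6, 4, 4 and 3 of 8 (214 to 277 against 186 to 221 CPM), with 1 lower in male SNI mice. Those of oligodendrocyte precursors were higher in 5, 3, 3 and 2 of 8, and their sums did not overlap (559 to 608 against 513 to 555 CPM). Astrocyte markers were lower in 5, 4, 7 and 8 of 10 (4945 to 5766 against 5363 to 6316 CPM). Oligodendrocyte markers were lower in 2, 0, 14 and 12 of 15. Their sums were 1220 to 3007 CPM in the female SNI mPFC against 3301 to 4351 in the ACC. In male SNI mice they overlapped, at 2156 to 3129 against 2929 to 4315 CPM, as they did in sham mice. Layer 5 sums were 467 to 505 against 533 to 566 CPM in female sham mice and overlapped in males. Microglia sums were 381 to 402 against 348 to 368 CPM in female sham mice and 377 to 398 against 341 to 374 CPM in male sham mice. They overlapped in female and in male SNI mice. Inhibitory neuron markers were lower in 4, 2, 5 and 3 of 10 (811 to 937 against 926 to 1057 CPM), with 1 higher in male SNI mice. Some vessel markers were lower as well, those of endothelium in 5, 4, 3 and 8 of 10 (244 to 305 against 299 to 342 CPM). Those of mural cells were lower in 4, 1, 1 and 7 of 8 (204 to 265 against 256 to 324 CPM). Beside these marker counts, 14%, 7.46%, 13.7% and 10.4% of all genes tested were called higher in the 4 sets. The shares called lower were 14.5%, 6.7%, 13.9% and 10.6%. Small counts, such as 1 of 8 mural cell markers in female SNI and 2 of 15 oligodendrocyte markers in female sham mice, are near these shares.

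SNI was compared with sham in each sex and region to see which members respond to the injury. Cdh22 was higher and Cdh13 lower after SNI in the male mPFC, and no member was called in the other 3 comparisons. Over all genes tested, 0.494% were called in the male mPFC, where 2 of 86 members were called, 0.00592% in the female mPFC (0 of 85), 0.024% in the ACC of females (0 of 86) and 0.00599% in that of males (0 of 86). At an unadjusted p under 0.05, edgeR gave 13 members in the mPFC of males and 11 in that of females, where 11.2% and 12.1% of all genes passed. The same threshold gave 3 members in the ACC of males and 14 in that of females, with 4.48% and 6.67% of all genes. DESeq2 called 5 members in the male mPFC, where it called 2.64% of the genes to which it gave an adjusted p. It called 0 members in the other comparisons. The shares of such genes called there were 0.0769% in the female mPFC, 0.018% in the ACC of males and 0.222% in that of females. The edgeR count became 10 in the female mPFC without the third female sham mPFC library and 2 in the female ACC without the second female sham ACC library. It became 9 in the male ACC without the third male sham ACC library. No share over all genes is given for these 3 fits, so their counts are not a result about the members.

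Cdh22 (chr2:165111507-165234853, minus strand), a type II cadherin of the brain, measured 59.2, 62.0 and 58.5 CPM in the male sham mPFC and 71.9, 73.8 and 69.3 in the male SNI mPFC. The 3 SNI pools were all above the 3 sham pools, with a log2 change of 0.26 ± 0.05 (FDR 0.0607). Cdh13 measured 128, 150.4 and 143 CPM in the male sham mPFC and 119, 109.6 and 116 in male SNI, again without overlap, with a log2 change of −0.29 ± 0.06 (FDR 0.0649). Neither call was firm. Cdh22 was not called without the first or the third sham library or the second SNI library, and Cdh13 without the second or the third sham library or without the second or the third SNI library. Both were lost in a single model over all 24 libraries (FDR 0.719 each) and after a GC trend was removed (FDR 0.492 for Cdh22 and 0.153 for Cdh13). Cdh2 measured 149.5, 153 and 155 CPM in sham and 134, 134 and 133 in SNI pools, a log2 difference of −0.18 ± 0.04 that missed the threshold (FDR 0.105), and Pcdh17 and Pcdh9 followed at −0.19 each. In the same pools 10 of 15 oligodendrocyte markers were lower after SNI (sums 3629 to 4178 CPM in sham and 2156 to 3129 in SNI) as were 3 of 8 layer 6 markers (236 to 262 and 188 to 212 CPM). None of the 8 excitatory neuron or 8 oligodendrocyte precursor markers was called, but their sums did not overlap, at 6222 to 6549 CPM in sham and 6946 to 7330 in SNI pools for excitatory neurons and 582 to 608 against 559 to 574 for precursors. The part of these markers in the changes was not tested.

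**Figure D4:**
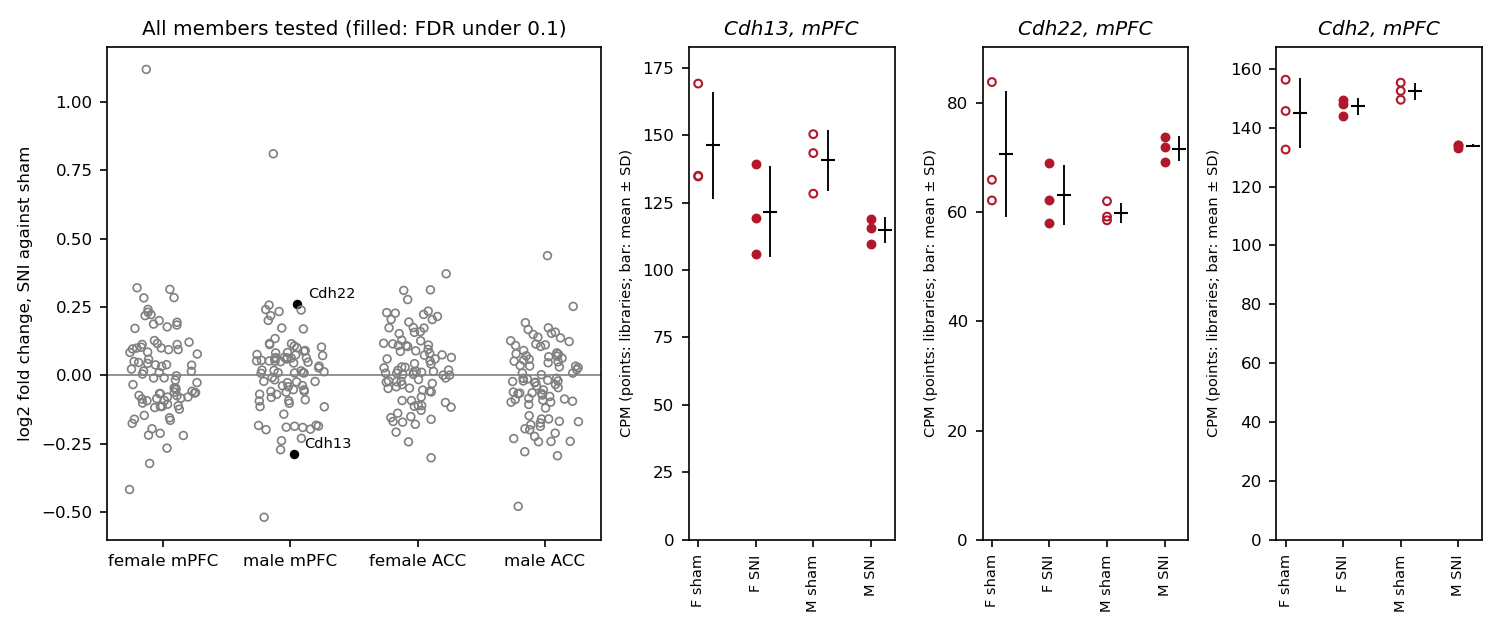
The left panel gives the log2 difference of SNI against sham for every member tested in each sex and region, filled where the FDR is under 0.1, and the other panels give CPM in the mPFC libraries for Cdh13, Cdh22 and Cdh2, sham open and SNI filled, with bars for the mean ± SD of 3 pools. Cdh22 lies at 58.5 to 62.0 CPM in the male sham mPFC and at 69.3 to 73.8 in the male SNI mPFC.

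In females, Cdh22 measured 83.9, 66 and 62.2 CPM in the sham mPFC and 69.0, 62.3 and 58.1 in the SNI mPFC, and the groups overlapped. Cdh13 measured 135, 169 and 135 CPM in sham and 106, 139 and 119 in SNI pools, with a log2 difference of −0.27 ± 0.11 (FDR 0.403). Cdh7 had the smallest p in the female mPFC, at 20.7, 19.4 and 23.2 CPM in sham and 27.7, 23.6 and 25.7 in SNI pools (0.28 on the log2 scale, FDR 0.401). The lead members of the female ACC were Pcdh19 at −0.16 (FDR 0.572) and Pcdhgb4 at 0.37, and of the male ACC Pcdh20 at −0.24 (FDR 0.768). None of the genes in the 3 lists of adhesion partners was called after SNI in any of the 4 comparisons.

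Whether the SNI effect on a member differed between the sexes or the regions was tested with interaction terms. No member was called, and the shares over all genes were 0% for sex by SNI in the mPFC and ACC and for region by SNI in females and in males, and 0.0115% for region by sex in sham mice. At an unadjusted p under 0.05, edgeR gave 10, 7, 10, 6 and 8 members in that order, beside 15.8%, 5.92%, 11.1%, 3.19% and 7.29% of all genes. DESeq2 called 2 in the sex by SNI term of the mPFC and 0 in the others, beside 10.9%, 0.0116%, 0.0344%, 0.0171% and 0.0924% of all genes to which it gave an adjusted p. The sex by SNI term of Cdh22 in the mPFC was −0.42 ± 0.13 (FDR 0.220), so the sexes were not shown to differ. The region by SNI term of Cdh13 in males was −0.35 ± 0.10 (FDR 1.0). Without the third female sham mPFC library 9 members were called in the sex by SNI term of the mPFC and 6 in the region by SNI term of females, and without the third male sham ACC library 9 in the sex by SNI term of the ACC. For these fits no share over all genes is given, so the counts are not a result about the members.

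Sham females and males were compared in each region. Counts were deposited separately for each sex, so sex and any handling done by sex cannot be told apart. No member was called in either, against 0.177% of all genes in the mPFC and 0.0958% in the ACC, while edgeR gave 17 and 11 members at an unadjusted p under 0.05, which 10.6% and 6.64% of all genes passed. DESeq2 called 2 and 0 members, beside 0.788% and 0.377% of all genes to which it gave an adjusted p. The count in the mPFC was 13 without the third female sham mPFC library, a fit for which no share over all genes is given. Pcdha1 had the smallest p in the mPFC, at 3.89, 5.29 and 4.54 CPM in females and 2.95, 2.33 and 2.72 in males, which did not overlap (log2 difference 0.78 ± 0.17, FDR 0.179). Cdh20 led in the ACC, where females minus males was −0.27 (FDR 0.549), with Pcdha8 at 0.62 (FDR 0.600).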

How the data were processed

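Total RNA of 24 pools was sequenced, and the authors deposited 4 tables, 1 per sex and region, with raw counts of reads per Ensembl gene. The columns give sex, treatment and number, and the region comes from the table. Per the submitters' processing notes, reads were trimmed with Trimmomatic 0.36, filtered with Bowtie2 2.33, mapped to GRCm38 with HISAT2 2.1.0 and counted with HTSeq 0.9.1, and edgeR 3.34.0 was used. The HTSeq overlap mode and strand setting are not given in the sources used here. Symbols, exons and coordinates are from GENCODE M21, which holds 33336 of the 33364 genes. CPM used TMM scaling over the 24 libraries.

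Each comparison of 2 groups used its own 6 libraries and each interaction 12, in R 4.3.3 with edgeR 4.0.16 (quasi-likelihood F-test, legacy setting, TMM), after filterByExpr (minimum count 10, total 15). P-values were adjusted by Benjamini-Hochberg over all genes tested. The SNI comparisons share no library, and nor do the region comparisons. Alternatives were DESeq2 1.42.0, RLE size factors, no low-count filter, the replicate number as a block, 1 model over 24 libraries, removal of a GC trend and leaving out each library. The steps were tested on simulated data. Cadherins and non-clustered protocadherins were named in order of adjusted p, clustered genes where called or, with none called, among the smallest p, and other genes only from the lists. The members and lists were chosen with earlier results of these data known.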

Additional observations from a re-analysis of the deposited data

How the results depend on the processing

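Region counts kept within 1.5 times the reported number under every alternative other than leaving out a library. Without the low-count filter, 3 members were called after SNI in female mPFC, 6 in male mPFC and 4 in female ACC, 6 between the sexes in the mPFC, 4 and 1 in the sex by SNI terms of mPFC and ACC, 2 and 2 in the region by SNI terms of females and males, and 1 in region by sex. DESeq2 gave 5 in the male mPFC after SNI and 2 each for the sexes and for sex by SNI in the mPFC. The single model and removal of the GC trend gave 0 in the male mPFC after SNI, and the latter gave 2 between the sexes in the mPFC. The cause was not tested. With a replicate block the male mPFC count after SNI was 6 and the sex count in the mPFC was 1. Apart from DESeq2, shares over all genes are not given for these alternatives. Their counts are therefore not a result about the members. In no comparison did all 3 same-numbered pairs correlate over 0.1 in their deviations, and the main fits used no pairing. Whether same-numbered mPFC and ACC pools came from the same animals is not given in the sources used here. With 3 pairs, low correlations cannot show that they did not. In the female mPFC after SNI each same-numbered pair (0.028 to 0.121) correlated more than every other pair (−0.111 to 0.014), and no other comparison showed this.

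Leaving out 1 library gave 0 to 10, 0 to 2, 0 to 2 and 0 to 9 members after SNI in the mPFC of females and of males and in the ACC of females and of males. For the regions it gave 20 to 36 in female sham, 12 to 30 in male sham, 20 to 34 in female SNI and 20 to 28 in male SNI mice. For the sexes it gave 0 to 13 in the mPFC and 0 in the ACC, for sex by SNI 0 to 9 in the mPFC and 0 to 9 in the ACC, and for region by SNI 0 to 6 in females. These ranges stand without the shares over all genes, so they show how the counts depend on single libraries and are not a result about the members. With 3 pools a group and few counts, changes in Cdh15, Cdh1 and other scarce members are the least certain.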

Other observations

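Over all 24 libraries, Pcdha8 measured 1.77 to 4.35 CPM in the 12 female libraries (median 3.20) and 0.461 to 2.50 in the 12 male libraries (median 1.73), and the ranges overlapped. Pcdha1, an alpha-cluster gene like Pcdha8, also overlapped between the sexes. Reads of the alpha cluster fall partly on exons that all its members share, and regions and treatments were pooled in these ranges. Here too, sex and any handling done by sex cannot be told apart.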
